A study of Mus musculus with 16 samples.

Results

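Sgk1 encodes serum- and glucocorticoid-regulated kinase 1, and it was examined together with the genes of corticosteroid-responsive sodium uptake in mouse colon. The set was fixed by name and held 10 genes: Sgk1, the sodium channel subunits Scnn1a, Scnn1b and Scnn1g, the receptors Nr3c1 and Nr3c2, the corticosteroid-inactivating enzyme Hsd11b2, the corticosteroid targets Tsc22d3 and Fkbp5, and the ubiquitin ligase Nedd4l. Of these, 6 were found among the 5171 distinct genes of the 4 deposited tables. Nr3c1, Hsd11b2, Fkbp5 and Nedd4l were in none of the tables, and their levels were not analysed here. Each table holds only genes that passed the authors' test in 1 comparison, so a gene found there had to differ somewhere, and the 6 do not stand for all 10.

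RNA had been sequenced from whole tissue of the central part of the colon of C57BL/6 mice. Wild type mice (WT) were compared with mice in which Cre recombinase, driven by the villin promoter, removed loxP-flanked exons of Smarcad1 from the gut epithelium (KO), so that every other cell of the KO tissue still carries the intact gene. All 4 groups had been given an enriched microbiota by bedding transfer from a second facility, begun 2 weeks before DSS. The colitis groups then drank 1% dextran sulphate sodium (DSS), a polymer that injures the colon lining, for 15 days, and the control groups did not. Each control group had 3 libraries and each colitis group 5, and the ages of the mice are not given in the sources used here. The series text speaks of small intestine where the sample labels say colon. The colon genes Car1, Aqp8 and Car4 had WT control means of 11.74, 10.76 and 10.73 log2 RPM (reads of a gene scaled to the library total), while none of 14 general epithelial markers was in a table.

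In the colon, sodium enters surface epithelial cells through the epithelial sodium channel, ENaC, which is built from the alpha, beta and gamma subunits made by Scnn1a, Scnn1b and Scnn1g. Aldosterone acts through the mineralocorticoid receptor Nr3c2 and induces Sgk1, whose kinase product phosphorylates the ligase Nedd4l and so keeps the channel at the cell surface. Glucocorticoids acting through Nr3c1 induce Sgk1 as well, together with genes such as Tsc22d3 and Fkbp5.

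The Sgk1 gene lies at chr10:21882184-21999903 on the plus strand (GRCm38, gene ENSMUSG00000019970) and has several annotated starts. RefSeq lists 6 Sgk1 promoter windows of 300 bases, each running from 250 bases before to 50 after a start (GRCm38.p6). Of these, 2 are shown because they differ in the element by which corticosteroid receptors bind DNA. The first window, chr10:21993640-21993939 on the plus strand, is printed 5′ to 3′ with an E-box (CACGTG) and a complete receptor element (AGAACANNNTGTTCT) in capitals. The second, chr10:21994416-21994715, belongs to the most downstream start and holds neither.
Sgk1 window with the element: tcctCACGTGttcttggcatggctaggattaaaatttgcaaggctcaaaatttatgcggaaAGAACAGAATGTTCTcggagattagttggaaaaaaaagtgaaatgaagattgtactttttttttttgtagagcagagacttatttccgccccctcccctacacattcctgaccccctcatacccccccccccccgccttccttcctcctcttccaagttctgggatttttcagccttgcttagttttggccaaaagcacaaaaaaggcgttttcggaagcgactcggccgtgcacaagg
Sgk1 window of the most downstream start: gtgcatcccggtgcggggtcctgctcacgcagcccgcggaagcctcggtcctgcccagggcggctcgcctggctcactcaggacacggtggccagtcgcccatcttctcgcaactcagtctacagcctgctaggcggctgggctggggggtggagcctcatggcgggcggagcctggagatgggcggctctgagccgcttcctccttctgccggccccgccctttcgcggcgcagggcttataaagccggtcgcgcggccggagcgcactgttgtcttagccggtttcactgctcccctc

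The receptor element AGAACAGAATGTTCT occupies chr10:21993701-21993715, in an intron of the longer Sgk1 transcripts. It begins 189 bases before the transcription start of its own window and 965 bases before the most downstream start. Both motifs read the same on either strand, and they do not overlap in this window. The complete element occurred in 3 of 32851 mouse promoter windows (0.00913%), and the Sgk1 window was the 1 among 4790 windows of genes in the tables. A looser form, GNACANNNTGTNC, which the Sgk1 element also contains, was in 156 windows (0.475%), and the E-box was in 2349 windows (7.15%). RefSeq windows were matched for 5 of the 6 genes found, 12 windows in all, and neither form of the element nor the E-box was in the other 11. Scnn1a has no entry. A match of letters is a description and not evidence of binding.

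The values are the authors' mean of log2 RPM over the libraries of a group, given without a spread, so no difference below was tested here between mice. A gene is said to have risen or fallen only where the authors' table for that comparison holds it, at an adjusted p-value under 0.05. Geometric mean depth, recovered from the lowest means, was 10.11 M reads in WT control, 9.767 in KO control, 8.005 in WT colitis and 9.866 in KO colitis. Intervals given in brackets are 95% intervals of counting error alone, and they leave out variation between mice. Smarcad1, the deleted gene, had means of 5.77 log2 RPM in WT control, 4.59 in KO control, 5.68 in WT colitis and 4.55 in KO colitis, lower in both KO groups. Markers of surface colonocytes had median colitis changes of −1.07 in WT and −0.76 in KO. Any fall smaller than these in the genes named below becomes a higher level relative to those markers. The medians cover only the 8 of 10 markers that were listed, and a listed gene had to differ somewhere. Markers that passed no test are left out, so these medians do not measure how many of these cells were lost.

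Sgk1 fell in colitis in both genotypes and was the gene of the set with the largest change. The mean of its log2 RPM values stood at 9.29 in WT control, 8.95 in KO control, 6.94 in WT colitis and 6.33 in KO colitis. On the linear scale these means were 624, 493, 123 and 80.3 RPM, or about 6312, 4819, 982 and 792 reads in a library. Both colitis groups thus lay far below both control groups, and the KO mean was the lower of each pair. In WT the colitis mean was 2.35 log2 units below control (counting interval −2.39 to −2.30), which left 19.7% of the control level. In KO it was 2.62 log2 units below control (−2.67 to −2.57), which left 16.3%. The gene was held in the tables of both colitis comparisons. Of the listed genes, 63.1% were in the WT colitis table and 78.4% in the KO colitis table, and 26.4% and 33.6% were there with a lower colitis mean.

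The median colitis change over all 5171 genes was 0.13 in WT and 0.19 in KO on the log2 scale, and relative to it the Sgk1 change was −2.47 in WT and −2.81 in KO. A fall of at least 1 log2 unit was seen in 13.0% of listed genes in WT and in 12.6% in KO. Of all 5171 genes, 77 had a larger fall than Sgk1 in WT and 38 in KO. Abundant genes were taken, after values were seen, as the 1208 with a mean over the 4 groups of at least 7 log2 RPM. Among them Slc37a2, Trpm6 and Tgm3 had larger falls in WT, with changes of −3.63, −2.49 and −2.48. In KO none of the 1208 had a larger fall, and Cyp2c55 came next at −2.09.

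**Figure D1:**
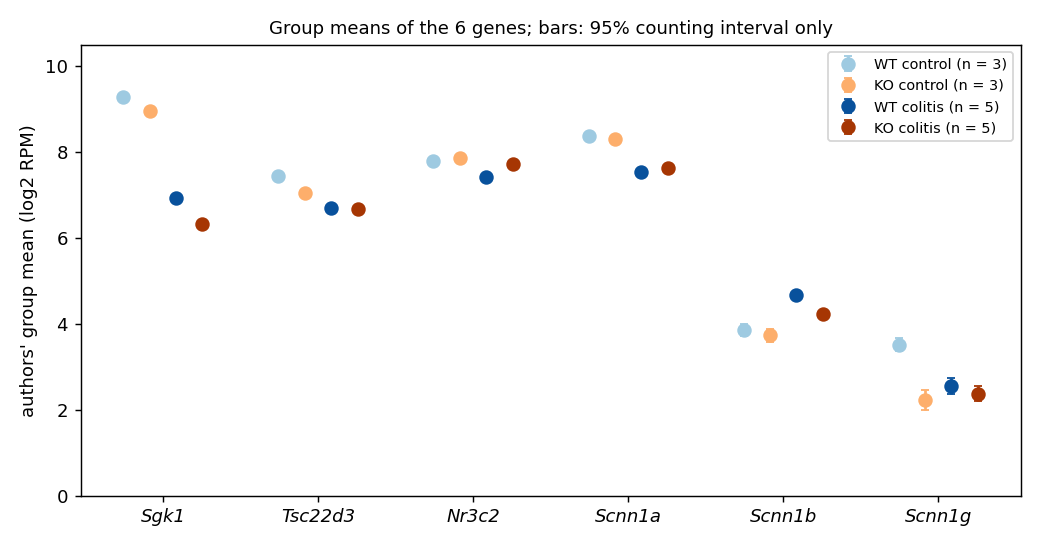
Authors' group means (log2 RPM, vertical axis) of the 6 genes found, 1 point per group; bars are 95% counting intervals and do not show variation between mice. Sgk1 goes from 9.29 and 8.95 in the control groups to 6.94 and 6.33 in colitis, while Scnn1b is the gene with higher means in both colitis groups.

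Between genotypes, the Sgk1 mean was lower in KO than in WT by 0.34 log2 units in control (counting interval −0.37 to −0.31) and by 0.61 in colitis (−0.67 to −0.55). Neither difference was in the authors' tables of KO against WT, which held 46 genes in control (0.890% of those listed) and 56 in colitis (1.08%). None of the 6 genes was in either of these tables. The colitis change of Sgk1 was larger in KO than in WT by 0.27 log2 units (counting interval −0.34 to −0.21 for KO minus WT). That difference of changes exceeded counting error and was not tested between mice.

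The alpha subunit gene Scnn1a (chr6:125320659-125344943, plus strand) is the channel subunit gene with the highest level here. Its means were 8.38 log2 RPM in WT control, 8.31 in KO control, 7.54 in WT colitis and 7.63 in KO colitis. Both colitis means were below both control means, and the genotypes lay close together. Scnn1a fell in WT by 0.84 log2 units (counting interval −0.88 to −0.80) and in KO by 0.68 (−0.72 to −0.64), although relative to surface colonocyte markers its change was 0.23 in WT and 0.08 in KO. It was in both colitis tables.

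The beta subunit gene Scnn1b (chr7:121865038-121918514, plus strand) moved the other way. Its means were 3.85 log2 RPM in WT control, 3.73 in KO control, 4.66 in WT colitis and 4.22 in KO colitis. Scnn1b rose in WT by 0.81 log2 units (counting interval 0.65 to 0.97). In KO its colitis mean was 0.49 above control (0.32 to 0.66), a difference that the KO table does not hold. It was the one gene of the 6 with a higher colitis mean in both genotypes.

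The gamma subunit gene Scnn1g (chr7:121734479-121768475, plus strand) was the least abundant. Its means were 3.51 log2 RPM in WT control, 2.23 in KO control, 2.56 in WT colitis and 2.37 in KO colitis. The WT control mean stood above the other 3, which ranged from 2.23 to 2.56. Scnn1g fell in WT by 0.95 log2 units (counting interval −1.19 to −0.71), although relative to surface colonocyte markers its WT change was 0.12. In KO the change was 0.14 (−0.16 to 0.43), within counting error of 0. In control, the KO mean was 1.27 log2 units below WT (−1.56 to −0.99), the largest genotype difference of the 6 genes, and this gene was not in the table of KO against WT in control. These values rest on about 115 reads in a WT control library and 45.8 in a KO control library.

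Levels of different genes were compared per kilobase of merged exons. In WT control, Scnn1a stood at 80.4 RPM per kb, Scnn1b at 5.47 and Scnn1g at 3.80. In WT colitis the same genes stood at 44.9, 9.60 and 1.97 RPM per kb. The ratio of alpha to beta transcript levels was 14.7 in WT control and 4.68 in WT colitis, and 15.3 in KO control and 6.76 in KO colitis. It was thus lower in colitis in both genotypes. The ratio of beta to gamma was 1.44 in WT control and 4.88 in WT colitis, and 3.22 and 4.12 in KO. With the longest transcript as the length, the ratio of alpha to beta was 17.1 in WT control and 5.44 in WT colitis.

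**Figure D2:**
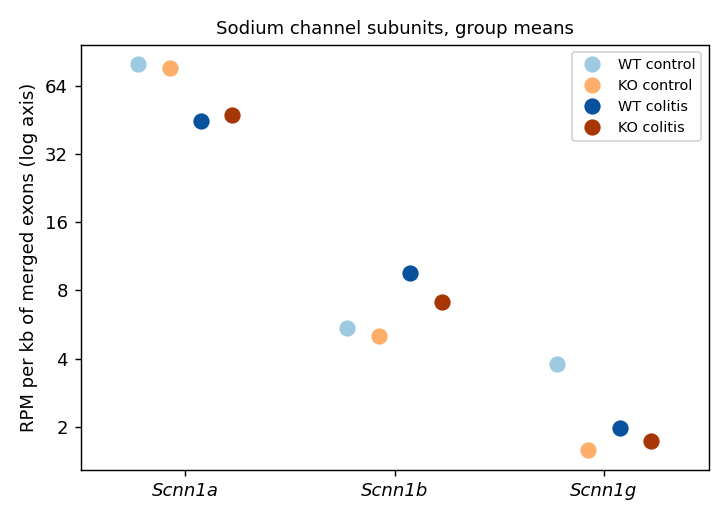
Levels of the 3 ENaC subunit genes per kilobase of merged exons (RPM per kb, log axis), 1 point per group mean, with no spread available. The alpha subunit Scnn1a is the highest in every group, and the gap to Scnn1b is smaller in both colitis groups.

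Across the set, Sgk1 had the highest level per length of the 6 genes in both control groups, 127 RPM per kb in WT and 101 in KO. In colitis Scnn1a was highest in both genotypes. Sgk1 then stood at 25.0 RPM per kb in WT, beside Nr3c2 at 26.3 and Tsc22d3 at 23.7, and at 16.4 in KO, below Nr3c2 at 32.6 and Tsc22d3 at 23.7. Whether neighbours in this order differ beyond the spread between mice cannot be told from means. With the longest transcript as length, Sgk1 stood at 39.6 RPM per kb in WT colitis, above Tsc22d3 at 35.8 and Nr3c2 at 28.8, so its place among these 3 genes depends on the length used.

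The mineralocorticoid receptor gene Nr3c2 (chr8:76899442-77245012, plus strand) changed little. Its means were 7.79 log2 RPM in WT control, 7.86 in KO control, 7.41 in WT colitis and 7.72 in KO colitis. Nr3c2 fell in WT by 0.37 log2 units (counting interval −0.42 to −0.33), although relative to surface colonocyte markers its WT change was 0.69. In KO the change was −0.14 (−0.18 to −0.09), or 0.62 relative to those markers, and the KO table does not hold it. Up to 155 bases of an Nr3c2 exon overlap the antisense gene Gm10649, and without stated strand in the counting the reads of the 2 genes there cannot be told apart.

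Tsc22d3 (chrX:140539528-140600659, minus strand) encodes the glucocorticoid-induced leucine zipper protein. Its means were 7.45 log2 RPM in WT control, 7.04 in KO control, 6.69 in WT colitis and 6.68 in KO colitis. The 2 control means differed, and the 2 colitis means were nearly equal. Tsc22d3 fell in WT by 0.76 log2 units (counting interval −0.82 to −0.71), although relative to surface colonocyte markers its WT change was 0.30. In KO it was lower in colitis by 0.35, with a counting interval of −0.42 to −0.29, and was not in the KO table, and relative to those markers its KO change was 0.41. In control the KO mean was 0.41 below WT.

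In WT, all 6 genes found were in the colitis table, 5 lower and 1 higher, with a median change of −0.80. In KO, 2 were in the table, both lower, and the median change of the 6 was −0.25, while relative to surface colonocyte markers these medians were 0.27 and 0.52. Beside these stand the shares of listed genes in each table, 63.1% and 78.4%. The genotypes share no samples in these 2 comparisons, and whether the other 4 genes responded less in KO was not tested.

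**Figure D3:**
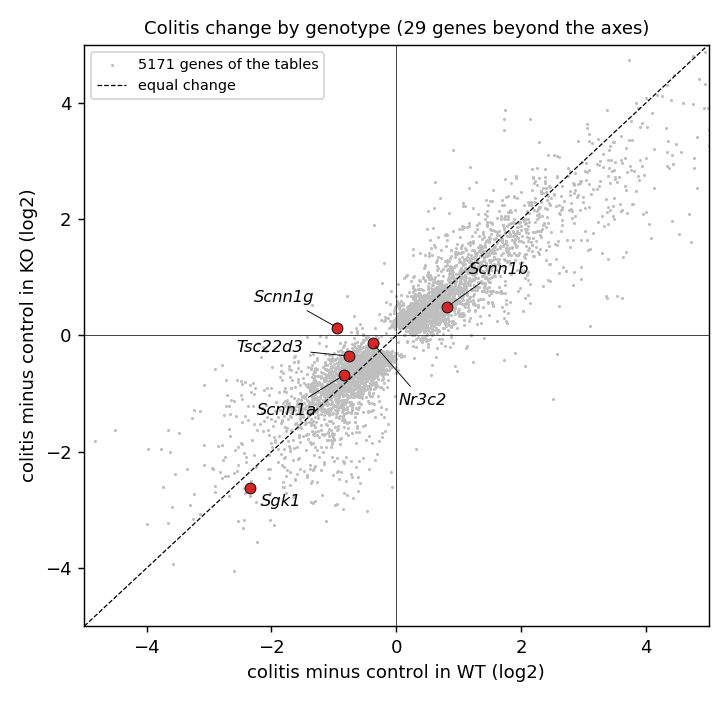
Colitis minus control change of the group mean (log2) in WT on the horizontal axis and in KO on the vertical axis; grey points are the 5171 listed genes, of which 29 lie beyond the axes, red points the 6 genes, and the dashed line marks equal change. Sgk1 lies at −2.35 and −2.62, and Scnn1g at −0.95 and 0.14; relative to surface colonocyte markers the WT changes of Scnn1a, Scnn1g, Nr3c2 and Tsc22d3 and the KO changes of Scnn1a, Nr3c2 and Tsc22d3 turn positive.

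Genes known to be induced by corticosteroids did not move in 1 direction. Of a list of 24, 19 were in a table. In WT, 9 of them fell and 7 rose, with a median change of −0.45 over the 19, against 0.13 over all listed genes, of which 26.4% fell and 36.6% rose. In KO, 5 fell and 4 rose, with a median of −0.15, against 0.19 over all listed genes, of which 33.6% fell and 44.8% rose. Relative to surface colonocyte markers the median was 0.61 in both genotypes. Zbtb16, a zinc finger repressor strongly induced by glucocorticoids, came closest to the WT change of Sgk1. Its means were 4.72 log2 RPM in WT control, 3.16 in KO control, 2.29 in WT colitis and 2.36 in KO colitis. Zbtb16 fell by 2.43 in WT, while its KO change of −0.80 was not in the KO table. Pdk4, a kinase that restrains pyruvate oxidation, fell by 1.35 in KO, and its WT change was −0.96. Sult1a1, a sulphotransferase, fell by 1.30 in WT and by 0.77 in KO. Cnksr3, a scaffold protein in the aldosterone response of ENaC, fell by 0.88 in WT and by 0.78 in KO. Against these, Cebpd, a transcription factor also induced in inflammation, rose by 1.13 in WT and by 0.69 in KO. The annexin gene Anxa1 rose by 0.52 in WT and by 0.48 in KO. Mt1, a metallothionein, was in both tables of KO against WT, higher in KO by 1.53 in control and by 1.26 in colitis.

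The kinases that act with Sgk1 and its substrates were mostly not in the tables. Of 12 genes of the Sgk family and its kinase input, 4 were listed. Wnk4, a kinase that controls sodium and chloride transport, fell by 0.67 in WT and by 0.66 in KO. Rictor, a subunit of the complex that phosphorylates Sgk1, fell by 0.48 in KO, and its WT change was −0.33. Akt1 rose by 0.17 in KO and Akt2 by 0.27 in WT. Of 10 Sgk1 substrates and related ligases, 2 were listed. Foxo3, a transcription factor that Sgk1 phosphorylates, fell by 0.77 in WT and by 0.71 in KO. Ndrg2 fell by 0.67 in WT, and its KO change was −0.28.

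Of 7 genes for proteases that cleave ENaC and for their inhibitors, 2 were listed. Both rose in WT, beside 36.6% of all listed genes, and 1 rose in KO, beside 44.8%. Tmprss4, a membrane serine protease that activates the channel, rose by 0.38 in WT and by 0.32 in KO. Serpine2, a protease inhibitor, rose by 0.80 in WT, and its KO change was 0.37.

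The other route of sodium uptake in the colon is electroneutral, by exchange of sodium for protons beside chloride for bicarbonate. Of 12 genes of this list 7 were in a table. In WT 5 fell and none rose, with a median change of −0.65 over the 7, and in KO 4 fell and 1 rose, with a median of −0.51, beside 26.4% of all listed genes that fell in WT and 33.6% in KO, while relative to surface colonocyte markers these medians were 0.42 and 0.25. Slc9a3, the apical sodium proton exchanger, had means of 10.15 log2 RPM in WT control, 9.71 in KO control, 9.06 in WT colitis and 9.03 in KO colitis. It fell by 1.09 in WT, and its KO change of −0.68 was not in the KO table. Slc26a3, the apical chloride bicarbonate exchanger, fell by 1.31 in WT and by 0.63 in KO. Slc9a2 fell by 0.65 and by 0.59 in the same order, while Slc4a7, a basolateral bicarbonate transporter, rose by 0.29 in KO. Each of these changes was smaller than that of Sgk1.

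Of 9 genes of chloride secretion, 4 were listed and all 4 fell in WT, beside 26.4% of all listed genes, with a median of −0.79. In KO only Ano1 of these was in the table, where it fell, beside 33.6% of all listed genes, and the median was −0.37, while relative to surface colonocyte markers these medians were 0.28 and 0.39. Cftr, the apical chloride channel, fell by 0.69 in WT and had a KO change of −0.16. Of 11 sodium and proton pump genes, 2 were listed, in opposite directions. Atp12a, the colonic proton potassium pump, which also responds to aldosterone, had means of 9.48 log2 RPM in WT control, 9.29 in KO control, 7.39 in WT colitis and 9.01 in KO colitis. The WT colitis table holds it, with a change of −2.10, and its KO change was −0.28. Fxyd5, a regulator of the sodium pump, rose by 1.35 in WT and by 1.18 in KO. Of 12 water channel and carbonic anhydrase genes 8 were listed, with 4 falling and 2 rising in WT and 4 falling and none rising in KO, beside the same shares of all listed genes. The carbonic anhydrase gene Car2 alone of these was in the table of KO against WT in colitis, 0.80 log2 units higher in KO. That table held 1.08% of all listed genes. The water channel gene Aqp8 fell by 1.40 in WT and by 0.89 in KO.

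**Figure D4:**
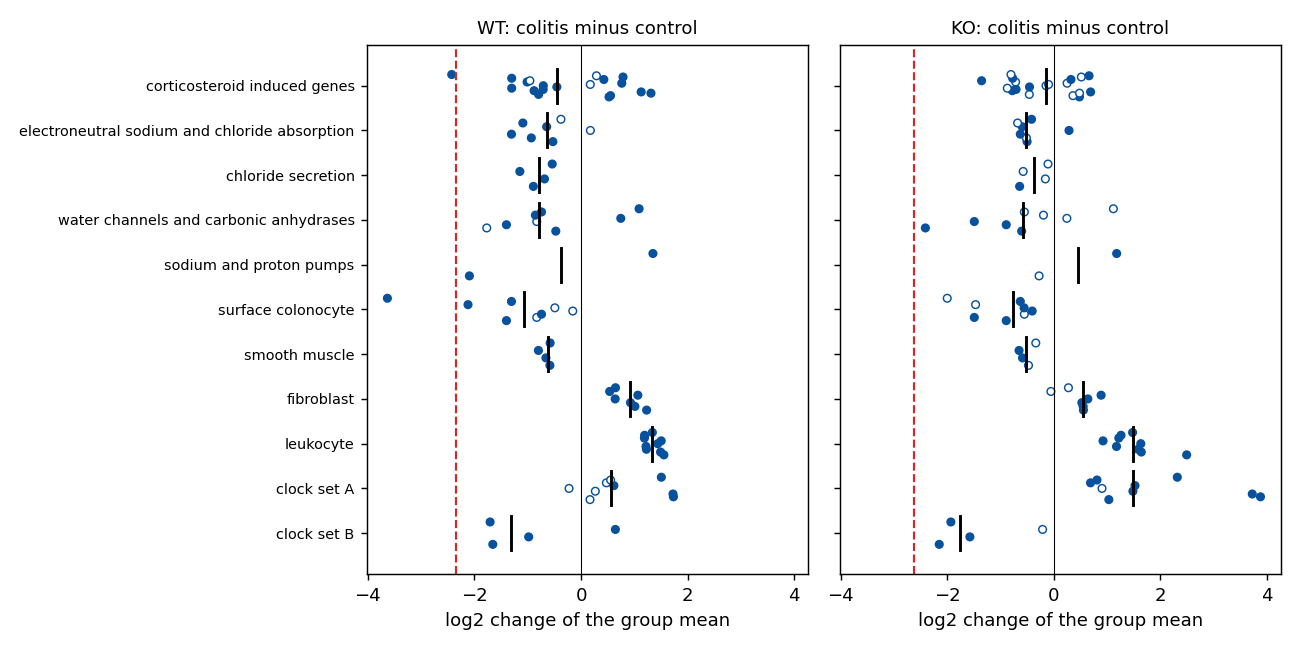
Colitis minus control change (log2, horizontal axis) of listed genes in 11 gene lists, WT on the left and KO on the right; filled points are in the authors' table of that comparison, open points are not, black bars are list medians and the red dashed line is Sgk1. Sgk1 at −2.35 and −2.62 lies below every list median, of which the lowest is −1.32 in WT and −1.75 in KO, both in clock set B.

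Other transcripts changed with the same groups. In bulk tissue, fewer cells of a type and less RNA per cell cannot be told apart. None of 14 general epithelial markers was in a table, so a change over the epithelium as a whole was not measured. Of 10 markers of surface colonocytes, the cells that carry ENaC, 8 were listed. All 8 had lower colitis means, as did 2378 of all 5171 listed genes in WT and 2365 in KO. The median change of these markers was −1.07 in WT (range −3.63 to −0.16) and −0.76 in KO (−2.00 to −0.41). Their summed level was 11663 RPM in WT control, 11208 in KO control, 5760 in WT colitis and 5856 in KO colitis. Relative to the median of these markers, the Sgk1 change was −1.28 in WT and −1.86 in KO, and the KO minus WT difference in colitis was −0.99. This list shares Slc26a3, Aqp8, Car1 and Car4 with the transport lists above. Of its 8 listed genes 5 fell in each genotype, beside 26.4% of all listed genes in WT and 33.6% in KO. Their part in the Sgk1 result was not tested.

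Of 10 leukocyte markers 9 were listed, and all 9 rose in both genotypes, beside 36.6% of all listed genes in WT and 44.8% in KO, with medians of 1.34 in WT and 1.48 in KO and summed levels of 341 RPM in both control groups, 839 in WT colitis and 888 in KO colitis. All 9 neutrophil markers had higher colitis means, as did 2793 of all 5171 listed genes in WT and 2806 in KO. Their sum was 102 RPM in WT control, 110 in KO control, 424 in WT colitis and 299 in KO colitis. In WT control 4 of the 9 were at or under 3 reads, and 5 in KO control. Ly6g alone made up 92.0, 98.2, 207 and 236 RPM of these sums, and the other 8 markers summed to 10.1, 11.4, 217 and 62.9 RPM in the same order. In colitis 8 of the 9 had a lower KO than WT mean, with a median difference of −1.50. Over all 5171 listed genes, 2722 were lower in KO, with a median of −0.01. None of the 9 was in the table of KO against WT in colitis. Of 8 smooth muscle markers 4 were listed and all had lower colitis means. All 4 fell in WT, beside 26.4% of all listed genes, and 2 fell in KO, beside 33.6%. Their sum was 4201 and 3872 RPM in WT and KO control, and 2709 and 2686 in WT and KO colitis. Of 8 fibroblast markers 7 were listed, with sums of 2649 and 2572 RPM in WT and KO control, and of 5075 and 3769 in WT and KO colitis. Only 1 of 8 goblet cell markers, Clca1, and 2 of 8 endothelial markers were in a table. Apart from the scaling on smooth muscle markers, under which the Sgk1 change was −1.72 in WT and −2.09 in KO, their part in the Sgk1 result was not tested.

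Genes of the circadian clock also differed between the groups, and the hour of tissue collection is not given in the sources used here. All 9 genes of a set that includes Dbp and Tef, output genes of the clock, were listed. Their median colitis change was 0.55 in WT and 1.48 in KO, beside 0.13 and 0.19 over all listed genes. In WT 4 of them rose, beside 36.6% of all listed genes, and in KO 8 rose, beside 44.8%. Nr1d1 of this set had a WT change of −0.23. Of 5 genes of a set in the opposite phase, 4 were listed, with medians of −1.32 and −1.75. In WT 3 of them fell, beside 26.4% of all listed genes, and 1 rose. In KO 3 fell, beside 33.6%. The gene that rose was Nfil3, by 0.64 in WT, and its KO change was −0.21. Arntl, a core clock activator, had means of 6.91 log2 RPM in WT control, 7.26 in KO control, 5.26 in WT colitis and 5.11 in KO colitis. In control, KO means of the Dbp set were lower than WT means at the median by 0.61, beside a median of 0.00 over all listed genes. Nr1d1 and Nr1d2 of this set were in the table of KO against WT in control, beside 0.890% of all listed genes. The part of the clock in the Sgk1 result was not tested.

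The genes whose pattern over the 4 groups was nearest to Sgk1 were all of low abundance. Likeness was the root mean square difference of the 4 means, each gene centred on its own mean, among 4896 other genes with all means above 3 reads. The nearest were Fzd10, a Wnt receptor, and Agbl2, a carboxypeptidase that acts on tubulin, each at 0.140 log2 units. They were followed by Gm12829 at 0.164, Gm45540 at 0.221, Gm31774 at 0.232 and Pnpla3, a lipid droplet enzyme, at 0.234. All 6 were in both colitis tables, as were 2182 of all 5171 listed genes. Choice by nearness to Sgk1 itself favours genes lower in both. Fzd10 had means of 0.95 log2 RPM in WT control, 0.57 in KO control, −1.30 in WT colitis and −1.69 in KO colitis, the last close to the level of 3 reads. Agbl2 had means of 2.36, 2.36, 0.02 and −0.40 in the same order. The highest mean among the 6 was 2.94, for Pnpla3 in WT control, so counting error weighs more on them than on Sgk1. By Pearson correlation over the 4 groups, among 940 genes with a large enough range, 6 other genes led and none was shared. Of abundant genes, defined as above after values were seen, Cyp2c55 at 0.348 and Guca2a, the gene of the fluid-secretion peptide guanylin, at 0.420 were nearest. Of the other 5 genes of the set, Scnn1a came closest, at rank 894 of 4896.

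**Figure D5:**
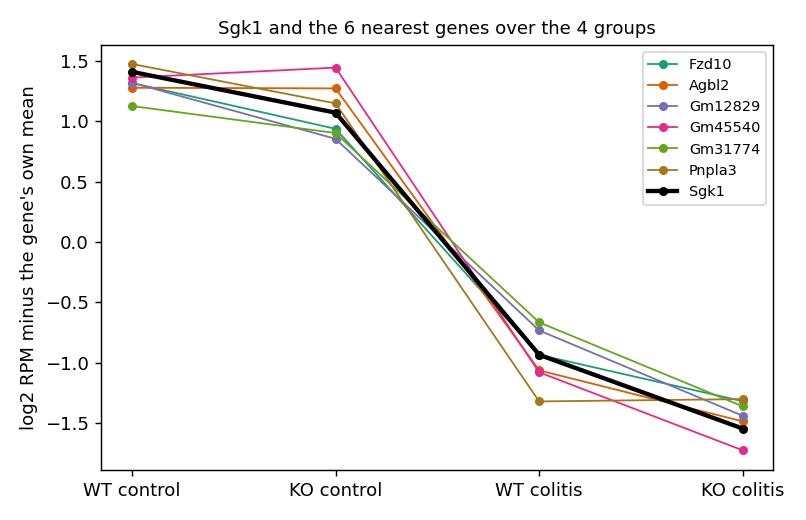
Group means (log2 RPM) minus each gene's own mean over the 4 groups, for Sgk1 (black) and its 6 nearest genes by root mean square difference; each point is an authors' mean with no spread. Sgk1 and all 6 genes have both control means above both colitis means, which follows from their choice by nearness to Sgk1.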

How the data were processed

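Total RNA of whole tissue from the central part of the colon was precipitated with LiCl to deplete DSS and sequenced on the BGISEQ-500. Per the study's methods and the submitters' processing notes, reads were mapped with HISAT2 2.1.0 to GRCm38, kept where unique, cleared of ribosomal RNA and counted over merged exons in SeqMonk. The authors deposited 4 tables of the genes that passed their DESeq2 test at an adjusted p-value (FDR) under 0.05, 1 table per comparison. The FDR column holds their own findings and was not used. The deposited log2 values are group means of log2 RPM, not corrected for length, with a count of 0 set to 0.9 reads. They bear no spread, so no test was run.

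Changes were differences of means. Depth was read from the steps that whole reads give to the lowest means, a method tested on simulated data, and counting intervals and the floor of 3 reads per library follow from it. Lengths came from GENCODE M21 (GRCm38) and promoters from RefSeq. Python 3.11.15, pandas 2.3.3 and numpy 2.4.6 were used. Every gene of the set found was named, with Smarcad1, the 6 genes nearest to Sgk1 and some listed members of the lists. Members with larger mean changes than some of those named, such as Aqp7 and Cebpb, were left out. The set, its lists and the alternatives were chosen with earlier results of these data known. Alternatives were the scaling, a floor, a pseudocount, the gene length and the measure of likeness.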

Additional observations from a re-analysis of the deposited data

How the results depend on the processing

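Sgk1 stayed lower in colitis and in KO under each scaling, floor and pseudocount tried. Each scaling used only listed genes, which had passed the authors' test somewhere, so no reference of unchanged genes was used here. With the median over all listed genes subtracted, the Sgk1 colitis change was −2.47 in WT and −2.81 in KO. With smooth muscle markers subtracted these were −1.72 and −2.09, the KO minus WT difference in control was −0.21 and the difference of the 2 changes was −0.36. With surface colonocyte markers subtracted, a scaling chosen after the data were seen, they were −1.28 and −1.86. The KO minus WT difference in colitis was then −0.99 and the difference of the 2 changes was −0.58. The −0.99 follows from a marker median of 0.38 over values that ranged from −0.81 to 1.71. Under that scaling 7 colitis changes of other genes changed sign, 5 of them held in a table. Scnn1a stood at 0.23 in WT and 0.08 in KO, Nr3c2 at 0.69 and 0.62, Tsc22d3 at 0.30 and 0.41, and Scnn1g at 0.12 in WT. The KO minus WT differences in colitis of Scnn1a and Nr3c2 also turned, to −0.29 and −0.07, as did their differences of changes, to −0.15 and −0.07. Of 75 values of the other 5 genes under 3 settings, 48 moved by less than counting error. Raising means to 3 reads or adding 1 RPM moved no value of Sgk1 beyond counting error. At about 792 reads or more per library, Sgk1 lies too far above these levels for either setting to move it much. Scaling on the epithelium list was not run, since none of its 14 genes is in a table. Leaving out replicates was not run. No paired analysis was possible because the tables hold group means. Depth limits Scnn1g most, at 45.8 reads per KO control library.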

Other observations

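Of 8 genes of local corticosteroid synthesis and activation 3 were in a table. Hsd11b1, the enzyme that regenerates active glucocorticoid inside cells, had means of 3.23 log2 RPM in WT control, 3.11 in KO control, 4.62 in WT colitis and 4.21 in KO colitis, and rose by 1.39 in WT and by 1.10 in KO. H6pd, which supplies its cofactor, rose by 0.66 in WT and by 0.47 in KO. Nr5a2, a transcription factor of intestinal steroid synthesis, fell by 0.46 in WT, and its KO change was −0.25. Relative to the median of all listed genes, 0.13 in WT and 0.19 in KO, these directions did not change. Surface colonocyte markers had median changes of −1.07 in WT and −0.76 in KO, and relative to them both changes of Nr5a2 turn positive.

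Of 12 genes of the chaperones that hold steroid receptors ready for hormone, Ptges3 alone was in a table. It rose by 0.47 in KO, and its WT change was 0.25. Of 6 genes of the response to high salt or osmolality, which also induces Sgk1, only Nfat5, the transcription factor of that response, was listed. Its means were 7.19 log2 RPM in WT control, 7.25 in KO control, 6.65 in WT colitis and 6.44 in KO colitis, and it fell by 0.54 in WT and by 0.81 in KO.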
